A study of Mus musculus with 13 samples.

Results

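The globin and erythroid genes of the developing mouse submandibular gland were followed as 8 named genes of 23364 in the files. These are the embryonic globin genes Hbb-y, Hbb-bh1 and Hba-x, the adult globin genes Hba-a1, Hbb-b1 and Hbb-b2, and 2 other genes of red cells, Alas2 and Slc4a1. They were taken by symbol, and selected on their expression over the time points with these values already known, so their levels are described below without a test. All 8 symbols were found in every sample, but Hba-a1 and Hbb-b2 were listed at 0 FPKM (fragments scaled to transcript length and to the mapped reads of the sample) in all 13 samples. Hbb-b1 never exceeded 0.441 FPKM.

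The study sequenced submandibular gland RNA of C57BL/6 mice, with no treatment or engineered allele, in 13 samples of 6 ages. There were 3 samples of E14.5 (embryonic days) and 2 of each other age, namely E16.5, E18.5, P5 (postnatal day 5), 4wk and 12wk (weeks). The E14.5 samples were pools of glands from 3 animals each, and those of the later embryos from 2 each. The sex of the embryos and P5 pups was not ascertained, and the 4wk and 12wk animals were males, so age and sex cannot be told apart in comparisons with the adult.

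Haemoglobin is built from alpha-type and beta-type globin chains, each of which holds a heme group. In the mouse, the red cells that arise in the yolk sac carry the embryonic chains encoded by Hba-x (zeta), Hbb-y (epsilon y) and Hbb-bh1 (beta h1), and the red cells made later in the fetal liver and in the bone marrow carry the adult chains of the Hba-a and Hbb-b genes. Red cells lose their nucleus before or after they enter the circulation, and young red cells still hold globin mRNA. A dissected gland contains its blood vessels, so RNA of the blood it holds is sequenced together with that of the gland.

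The adult globin genes come in near-identical copies, which is shown here by the start of each coding sequence because it bears on which rows hold reads. In coding exons of the mm9 assembly (GENCODE gene models), the following are bases 1 to 50 of each coding sequence, 5′ to 3′, and capitals mark bases that differ from Hba-a1 in the alpha group and from Hbb-b1 in the beta group.
Hba-a1: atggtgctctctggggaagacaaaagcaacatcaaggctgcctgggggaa
Hba-a2: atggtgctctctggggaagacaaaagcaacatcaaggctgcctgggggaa
Hba-x: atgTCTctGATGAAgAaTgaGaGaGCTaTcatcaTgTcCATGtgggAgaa
Hbb-b1: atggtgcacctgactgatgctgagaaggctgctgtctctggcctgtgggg
Hbb-b2: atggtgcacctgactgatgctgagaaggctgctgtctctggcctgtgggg
Hbb-y: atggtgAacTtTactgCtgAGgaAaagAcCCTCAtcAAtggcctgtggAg
Hbb-bh1: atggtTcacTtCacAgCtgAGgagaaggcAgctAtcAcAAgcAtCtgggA

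The alpha-type stretches lie on the plus strand at chr11:32183707-32183756 (Hba-a1), chr11:32196524-32196573 (Hba-a2) and chr11:32176664-32176713 (Hba-x). The beta-type stretches lie on the minus strand at chr7:110976340-110976389 (Hbb-b1), chr7:110962334-110962383 (Hbb-b2), chr7:111001617-111001666 (Hbb-y) and chr7:110991575-110991624 (Hbb-bh1). Hba-a1 and Hba-a2 do not differ in these bases, nor do Hbb-b1 and Hbb-b2, whereas Hba-x differs from Hba-a1 at 24 of 50 bases, Hbb-y from Hbb-b1 at 16 and Hbb-bh1 from Hbb-b1 at 15. Over the whole coding sequence, 1 of 429 bases differed between Hba-a1 and Hba-a2, and 1 of 444 between Hbb-b1 and Hbb-b2. The embryonic genes were 62.0% (Hba-x against Hba-a1), 74.3% (Hbb-y against Hbb-b1) and 74.1% (Hbb-bh1 against Hbb-b1) identical to their adult relatives.

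The reads of the study were 50 bases long, and reads with more than 1 mapped place, or at a place with more than 1 gene, were not counted. Of the 50-base windows of each transcript, 67.5% in Hba-a1 and 86.9% in Hba-a2 also occurred in the other copy, as did 52.3% in Hbb-b1 and 58.3% in Hbb-b2. No such window was found in Hbb-y, Hbb-bh1, Hba-x, Alas2 or Slc4a1. The other windows of Hba-a1, Hbb-b1 and Hbb-b2 were in no protein-coding transcript of another gene in the annotation, and the part of the shared windows in the low values of these rows was not tested.

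**Figure D1:**
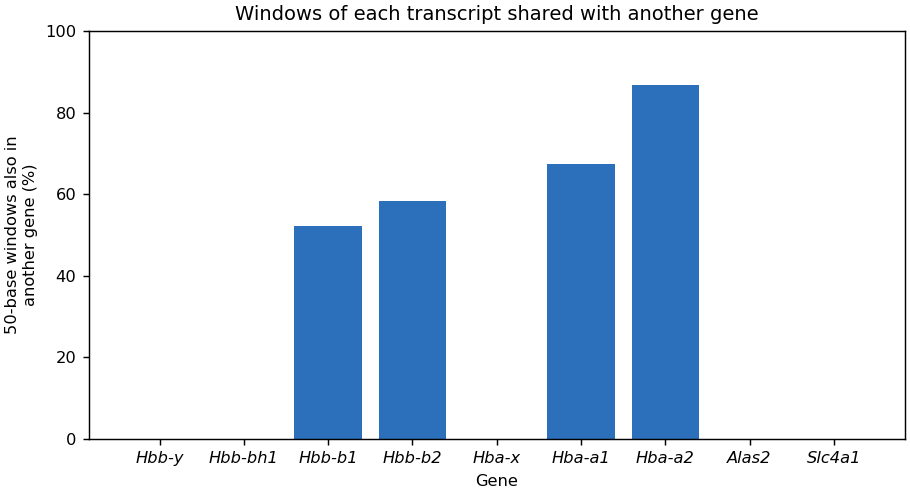
The share of 50-base windows of each transcript (vertical axis, percent) that also occur in the transcripts of another gene, for each of 9 genes. The bars of Hbb-b1, Hbb-b2, Hba-a1 and Hba-a2 stand between 52.3% and 86.9%, and those of Hbb-y, Hbb-bh1, Hba-x, Alas2 and Slc4a1 are at 0.

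For every gene the authors deposited FPKM, and the numbers of reads below were worked back from the steps between low values. Depth was 5806119 and 7950003 reads on genes at 4wk and between 17343751 and 48209316 in the other 11 samples. At 4wk, 3 reads of Hbb-y, the limit that a count of 0 allows, were worth 0.835 and 0.610 FPKM, and such limits cover counting error only. Median-of-ratios factors computed from the FPKM were 1.15 to 1.38 in the embryo, 1.09 and 1.03 at P5 and 0.617 to 0.714 in the adult. Rescaling by them moved the median difference of all genes, on the log2(FPKM + 1) scale, by 0.00 for E16.5 against E14.5, 0.12 for E18.5 against E16.5, 0.12 for P5 against E18.5, 0.48 for 4wk against P5 and 0.01 for 12wk against 4wk. E14.5 replicate 1 stood apart from the other E14.5 samples, so results that rest on it are also given without it. In bulk tissue, fewer red cells and less RNA per red cell cannot be told apart.

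Hbb-y, the main embryonic beta-type globin gene (chr7:111000259-111001754, minus strand, mm9), was the most abundant embryonic globin row in all 3 E14.5 samples and was lower at each age up to P5. It stood at 2991, 334 and 670.2 FPKM in E14.5 replicates 1, 2 and 3, at 35.4 and 8.70 FPKM at E16.5, and at 4.098 and 1.54 FPKM at E18.5. At P5 it was at 0.0334 and 0.0383 FPKM, which was 1 read in each sample, at 4wk it was listed at 0 in both, and at 12wk it was at 0.592 and 0.795 FPKM (8 and 14 reads). In E14.5 replicate 1 Hbb-y ranked 3 among all genes by FPKM, against 176 and 97 in replicates 2 and 3.

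From E14.5 to P5 no consecutive ages overlapped in Hbb-y. The mean was 1332 ± 1447 FPKM (SD, n = 3) at E14.5 and 22.0 ± 18.9 (SD, n = 2) at E16.5, a 60.4-fold difference that was 22.8-fold without E14.5 replicate 1. Between E16.5 and E18.5 it was 7.81-fold. Between E18.5 and P5 it rested on 75 against 2 reads, a ratio of 68.1 at equal depth (95% exact interval 18.2 to 572, counting error only). From P5 to 12wk the direction was the opposite, with 2 against 22 reads and a ratio of 19.8 (95% exact interval 4.86 to 174, counting error only). The reads of each age were added over its samples, so these intervals leave out the spread between samples and are no test of a difference. Taken singly, the 4wk samples were too shallow to place beside 12wk, since their limits of 0.835 and 0.610 FPKM lie at the level seen there. A limit for both 4wk samples added together, which would be lower, was not computed.

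Hba-x, the embryonic zeta-globin gene of the alpha type (chr11:32176400-32178116, plus strand, mm9), followed the same order at a lower level. It was at 291, 40.2 and 78.7 FPKM in E14.5 replicates 1, 2 and 3, at 9.42 and 7.15 FPKM at E16.5, and at 2.59 and 1.44 FPKM at E18.5. The highest value was again that of E14.5 replicate 1. At P5 it was at 0.0345 and 0 FPKM, at 4wk at 0 in both samples, and at 12wk at 0.153 and 0 FPKM. The E14.5 mean was 16.49-fold that of E16.5, or 7.18-fold without E14.5 replicate 1, and the E16.5 mean was 4.11-fold that of E18.5. Between E18.5 and P5 it rested on 55 against 1 reads, a ratio of 99.8 (95% exact interval 17.2 to 4013, counting error only). The samples of P5, 4wk and 12wk overlapped one another.

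Hbb-bh1, the other embryonic beta-type gene (chr7:110990150-110991678, minus strand, mm9), was the lowest of the 3 embryonic rows. It stood at 24.6, 2.91 and 4.23 FPKM in E14.5 replicates 1, 2 and 3, at 1.22 and 0.791 FPKM at E16.5, and at 0 and 0.303 FPKM at E18.5. It was at 0 in the P5 and 4wk samples and at 0 and 0.115 FPKM (2 reads) at 12wk. The E14.5 samples did not overlap those of E16.5, with means that differed 10.5-fold, or 3.55-fold without E14.5 replicate 1.

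The proportions among the embryonic rows also differed with age. Hbb-y was 10.3, 8.31 and 8.52 times Hba-x (per length) in the 3 E14.5 samples, 3.75 and 1.22 times at E16.5, and 1.58 and 1.07 times at E18.5. These ratios within a sample do not depend on scaling between samples, and E14.5 replicate 1 lay near the others in them. Over all 13 samples Hbb-y and Hba-x had a Pearson r of 0.99 on log2(FPKM + 1), and Hbb-y and Hbb-bh1 of 0.95, values that share library, depth and the wide gap between E14.5 and the rest.

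Hba-a1 (chr11:32183511-32184465), one of the adult alpha-globin copies, and Hbb-b2 (chr7:110961038-110962510), one of the adult beta-globin copies, had no value above 0, nor had the adult alpha copy Hba-a2. Hbb-b1 (chr7:110975048-110976610), the other adult beta-globin copy, was at 0, 0.252 and 0.239 FPKM at E14.5 and at 0.441 and 0.0856 FPKM at E16.5, where 0.441 FPKM was 10 reads. It was at 0.0921 and 0 FPKM at E18.5, at 0 at P5 and 4wk, and at 0 and 0.0562 FPKM at 12wk. On the member rows alone, the embryonic genes therefore took 94.2% to 100% of the beta-globin FPKM in the 11 samples that had any, a share set by the near-empty adult rows. Hba-x was likewise 100% of Hba-x and Hba-a1 wherever it was above 0.

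A further row named Beta-s held a large adult-type signal, and it was brought in after its values were seen. The RefSeq gene table lists Beta-s as another name of Hbb-bs, an adult beta-globin gene, and the 120 bases before the RefSeq start of Hbb-bs matched mm9 at chr7:110976443-110976562 on the minus strand, within the span of Hbb-b1. Beta-s was at 2119.9, 4187 and 3919 FPKM in E14.5 replicates 1, 2 and 3, at 8055 and 3251 FPKM at E16.5, and at 4987 and 4332 FPKM at E18.5. It was at 688 and 287 FPKM at P5, at 164 and 93.4 FPKM at 4wk, and at 109 and 88.2 FPKM at 12wk. The E14.5 samples overlapped those of E16.5, which overlapped those of E18.5, P5 lay below all 7 embryonic samples, the adult samples lay below P5, and 4wk overlapped 12wk. Beta-s ranked between 1 and 8 among all genes in the 7 embryonic samples and between 269 and 465 in the 4 adult ones. The E18.5 mean was 9.56-fold that of P5 and 47.2-fold that of 12wk, and the latter was 26.3-fold after median-of-ratios rescaling.

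With Beta-s counted among the adult rows, Hbb-y and Hbb-bh1 together were 58.7%, 7.45% and 14.7% of the beta-globin FPKM in E14.5 replicates 1, 2 and 3. The E16.5 samples had 0.452% and 0.291%, the E18.5 samples 0.0821% and 0.0426%, and the P5 samples 0.00486% and 0.0134%. The 4wk samples had none and the 12wk samples 0.540% and 1.02%. The E14.5 mean was 27.0% ± 27.7 (SD, n = 3), and 11.1% ± 5.11 (SD, n = 2) without replicate 1. From E14.5 to P5 no 2 consecutive ages overlapped, and both 12wk samples lay above the E16.5 samples. This share does not depend on scaling between samples, and at 12wk it rests on 8 and 14 reads of Hbb-y. Reads at more than 1 place were not counted, and the adult beta copies share windows while Hbb-y and Hbb-bh1 share none. The share of FPKM may therefore overstate the embryonic part, and by how much was not tested.

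**Figure D2:**
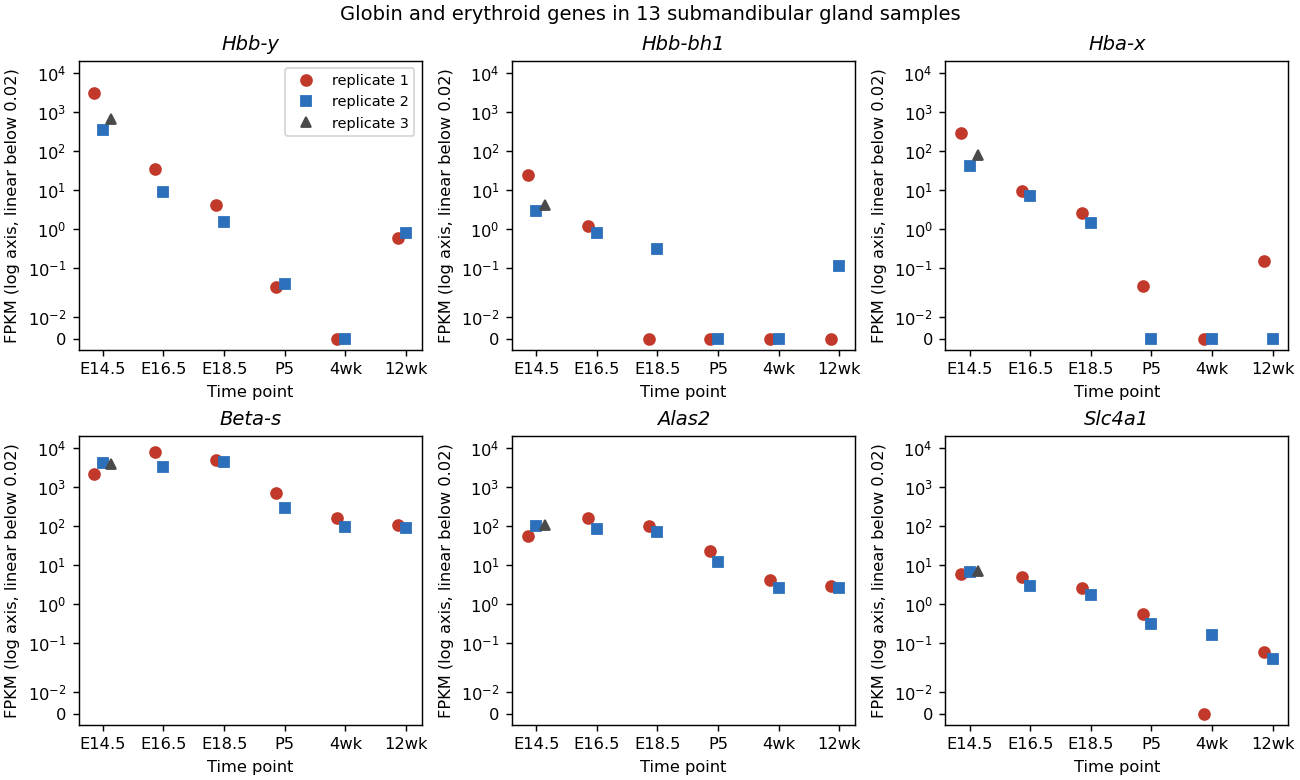
FPKM (vertical axis, log scale above 0.02 and linear below) of Hbb-y, Hbb-bh1, Hba-x, Beta-s, Alas2 and Slc4a1 by time point (horizontal axis), with 1 symbol per sample shaped by replicate number. Hbb-y runs from 2991 FPKM in E14.5 replicate 1 to 0 at 4wk, while Beta-s stays between 2119.9 and 8055 FPKM in the embryo and is at 88.2 FPKM or above in the adult.

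**Figure D3:**
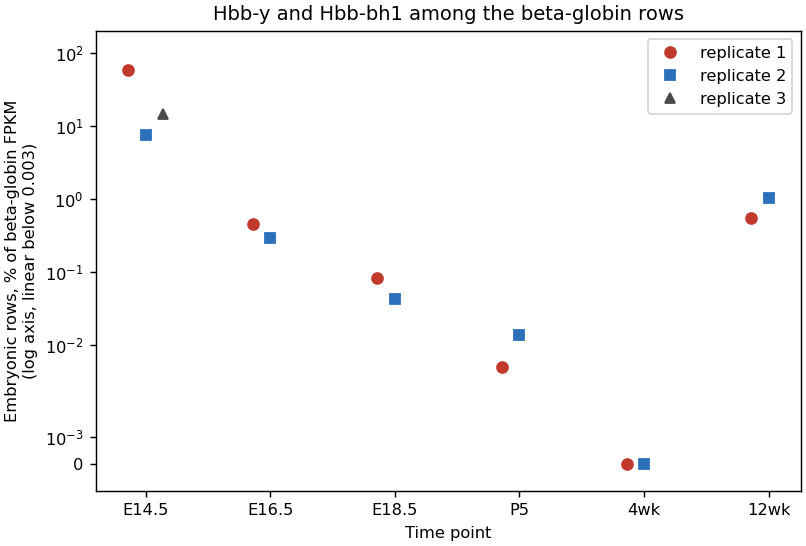
The summed FPKM of Hbb-y and Hbb-bh1 as a percent of the beta-globin rows with Beta-s (vertical axis, log scale above 0.003% and linear below) by time point, with 1 symbol per sample. The share was 58.7%, 7.45% and 14.7% at E14.5, below 0.5% from E16.5 to 4wk, and 0.540% and 1.02% at 12wk.

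The distance of E14.5 replicate 1 from the other E14.5 samples was seen in the embryonic globins and in other genes. Relative to the mean of replicates 2 and 3, it held 5.96 times the Hbb-y, 6.88 times the Hbb-bh1 and 4.895 times the Hba-x. It held 0.524 times the Alas2, 0.523 times the Beta-s and 0.876 times the Slc4a1, so the embryonic and adult-type rows lay on opposite sides of the other replicates. All 6 epithelial genes that rose from E14.5 to E16.5 were also lower in it than in replicates 2 and 3. Replicate 1 was part of that comparison and its low values enlarge the rise, so this is partly built into their choice. Aqp5, a water channel of acinar cells, was at 0.568 FPKM against 9.13 and 5.98 in replicates 2 and 3. Bhlha15, an acinar transcription factor, was at 0.609 FPKM against 4.97 and 4.39, and Smgc, a secreted product of the immature gland, at 0.0523 FPKM against 6.23 and 3.30. The keratins Krt19, Krt18 and Krt8 were at 0.447, 0.498 and 0.612 times the mean of replicates 2 and 3. Of the 4 epithelial genes not called at E16.5, Cdh1, Epcam and Krt14 were at 0.576, 0.631 and 0.722 times that mean, while Krt5, a basal keratin, was at 2.27 times. The part of these differences in the globin values was not tested.

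Alas2, the erythroid form of the enzyme that starts heme synthesis (chrX:146981918-147005181, plus strand, mm9), kept its level through the embryonic ages and was lower after birth. It was at 55.3, 102 and 109 FPKM in E14.5 replicates 1, 2 and 3, at 156 and 82.1 FPKM at E16.5, and at 101 and 72.2 FPKM at E18.5. The 3 embryonic ages overlapped. It was at 22.9 and 12.0 FPKM at P5, at 4.26 and 2.54 FPKM at 4wk, and at 2.92 and 2.65 FPKM at 12wk. P5 lay below all embryonic samples and above all adult samples, and the 2 adult ages overlapped. The E18.5 mean of 86.5 ± 20.2 FPKM (SD, n = 2) was 4.96-fold that of P5 and 31.1-fold that of 12wk, or 17.2-fold that of 12wk after rescaling.

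Slc4a1, the anion exchanger known as band 3 of the red cell membrane (chr11:102210138-102227517, minus strand, mm9), was lower at every age than at the one before as far as P5. It was at 5.95, 6.47 and 7.11 FPKM in E14.5 replicates 1, 2 and 3, at 4.99 and 2.99 FPKM at E16.5, and at 2.66 and 1.69 FPKM at E18.5, and these ages did not overlap. It was at 0.546 and 0.318 FPKM at P5. At 4wk it was at 0 and 0.166 FPKM (0 and 6 reads), and at 12wk at 0.0604 and 0.0387 FPKM (6 and 5 reads), and these ages overlapped. The E14.5 mean was 1.63-fold that of E16.5, and 1.70-fold without E14.5 replicate 1, and the E18.5 mean was 5.04-fold that of P5.

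Beta-s varied less relative to Alas2 than either gene did by itself. The ratio of their FPKM lay between 24.0 and 60.0 in all 13 samples, a 2.50-fold range, while Alas2 itself ranged 61.4-fold and Beta-s 91.3-fold. In the E14.5 samples it was 38.3, 41.0 and 35.9, so the library with much Hbb-y did not stand apart in it. It was lowest at P5, at 30.0 and 24.0, and highest at E18.5, at 49.5 and 60.0. The ratio of Hbb-y to Alas2 ran from 54.0 in E14.5 replicate 1, with 3.27 and 6.13 in the other 2 E14.5 samples, to 0.00146 and 0.00320 at P5, and was 0.203 and 0.300 at 12wk. Alas2 was 9.30 to 15.8 times Slc4a1 at E14.5 and 37.9 and 42.6 times at E18.5, both as FPKM.

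**Figure D4:**
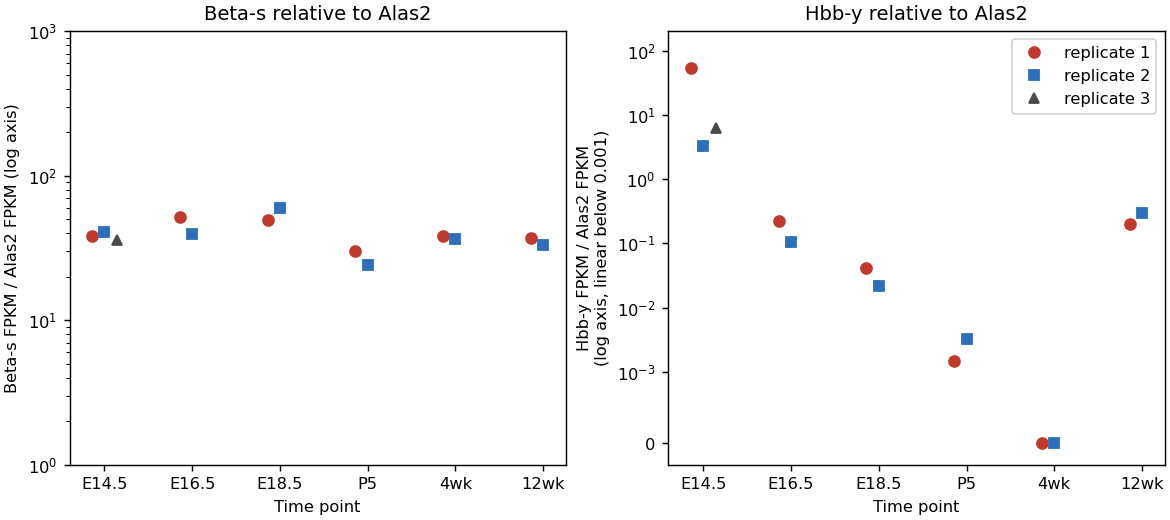
The FPKM of Beta-s (left) and of Hbb-y (right) divided by the FPKM of Alas2 in the same sample, by time point, with 1 symbol per sample. The left axis is a log scale, on which all 13 samples lie between 24.0 and 60.0, and the right axis is a log scale above 0.001 and linear below, on which they run from 54.0 at E14.5 to 0 at 4wk.

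The genes outside the 8 whose profile was most like that of Alas2 were Beta-s, Atf1, Arl6ip1, Fancb and Bpgm, with Pearson r between 0.987 and 0.995 on log2(FPKM + 1) over 13 samples. Bpgm encodes the red cell enzyme that makes 2,3-bisphosphoglycerate, and it ranged from 5.97 to 66.8 FPKM. For Hbb-y they were Corin, Slitrk1, Phex, Rlbp1 and E330013P04Rik (r of 0.982 to 0.993), and for Slc4a1 they were Dkk2, Dbc1, Gps1, Dcx and Pde12 (r of 0.985 to 0.992). For the near-empty Hbb-b1 row they were Chchd1, 2810428I15Rik, Mrpl20, Wdr53 and Mkrn1 (r of 0.830 to 0.857), where the row itself holds at most 10 reads. These are descriptions over samples that share library, depth and 6 ages.

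Other genes of red cells were examined as 4 lists of 66 genes in all, of which 65 were in the files and 53 reached 1 FPKM in at least 1 sample. They were tested with limma on log2(FPKM + 1), a scale that understates differences of low genes, with Benjamini-Hochberg adjustment over 14650 genes, and a gene was called where the log2 difference was 1 or more in size with an adjusted p below 0.1. In 35 of the 53 genes no comparison of consecutive ages was called. The 18 that were called included 8 of 16 red cell enzymes and maturation genes, 5 of 15 membrane and skeleton genes, 3 of 8 transcription factors and 2 of 14 genes of heme synthesis and iron uptake. The share of all tested genes called in any comparison was not computed, and 22.1% of them fell at 4wk against P5 alone. These counts are therefore no result about the lists. Among the 12 that did not reach 1 FPKM was Gata1, the defining transcription factor of the lineage, which was at 0.627 FPKM or less in every sample. Many of these genes, among them Cat, Gpx1, Car2 and the enzymes of heme synthesis other than Alas2, are also expressed by cells other than red cells.

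At E16.5 against E14.5, 1 of 53 genes rose and 1 fell, where 4.17% of all tested genes rose and 0.983% fell. Isg20, an exonuclease induced by interferon, was at 1.15, 9.03 and 7.48 FPKM at E14.5 and at 60.0 and 43.7 FPKM at E16.5 (log2 difference 3.20 ± 0.51 SE, limma adjusted p = 0.00215). Alox15, a lipoxygenase of maturing red cells, fell from 0.430, 2.71 and 2.85 FPKM to 0.251 and 0.122 FPKM (−1.21 ± 0.34 SE, limma adjusted p = 0.0323). Replicate 1 was the lowest of the E14.5 samples in both genes. Without it, 3 genes rose and 1 fell, and without E14.5 replicate 3 or E16.5 replicate 2 a single gene was called. The median log2 difference of the list was 0.05, beside 0.00 over all tested genes.

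At E18.5 against E16.5, 0 of 53 genes rose and 3 fell by limma, where 1.09% of all tested genes rose and 1.85% fell. At an unadjusted limma p below 0.05, 1 gene was higher and 13 were lower. Of all 14650 tested genes, 3764 were below that p in either direction, and their number by direction was not computed. Tmod1, which caps actin filaments, fell from 1.88 and 3.36 FPKM to 0.301 and 0.161 FPKM (−1.53 ± 0.23 SE, limma adjusted p = 0.00318). Ank1, the ankyrin that ties band 3 to the skeleton, fell from 1.35 and 1.90 FPKM to 0.174 and 0.261 FPKM. After median-of-ratios rescaling Tmod1 alone was called. The median log2 difference was −0.17 in the list and −0.14 over all tested genes.

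Across birth, at P5 against E18.5, 1 of 53 genes rose (1.89%) and 5 fell (9.43%), where 2.07% of all tested genes rose and 2.97% fell. Ube2l6, a conjugating enzyme for the ubiquitin-like protein ISG15, fell from 34.0 and 28.3 FPKM to 12.3 and 9.25 FPKM (−1.46 ± 0.36 SE, limma adjusted p = 0.0173), and Bpgm from 43.4 and 34.1 FPKM to 18.2 and 14.05 FPKM. Aqp1, a water channel of red cells and of capillary endothelium, and Isg20 fell by 1.05 and 1.45 on the log2 scale, and were not called after rescaling. Cat, the catalase gene, rose from 86.2 and 79.3 FPKM to 211 and 221 FPKM (1.38 ± 0.17 SE, limma adjusted p = 0.000495). Without E18.5 replicate 1, Cat alone was called by limma, and Ube2l6, Bpgm, Aqp1 and Isg20 were lower by 1.01 to 1.57 on the log2 scale with limma adjusted p of 0.112 to 0.238. Without P5 replicate 2 they were not called either (limma adjusted p of 0.125 to 0.395), and Fam46c was the 1 gene called lower, a gene named after its values were seen. The median log2 difference of the list, −0.12, equalled that over all tested genes to 2 decimals.

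At 4wk against P5, 3 of 53 genes rose (5.66%) and 9 fell (17.0%), where 2.19% of all tested genes rose and 22.1% fell. The share that fell thus did not exceed that of all genes, whose median was lower by 0.53 on the log2 scale. It is no result about the list. Ldb1 and Myb led the transcription factors, with Ldb1, a cofactor of GATA1 and LMO2 complexes, at 57.3 and 46.3 FPKM and then at 12.7 and 12.0 FPKM. Aqp1 and Gypc, which encodes a red cell membrane protein, led the membrane genes with −1.90 and −1.67. Ppox and Steap3, of heme synthesis and iron reduction, fell by 1.50 and 1.22 on the log2 scale, and Cat and Ube2l6 by 1.32 and 1.07. Ppox, Steap3, Cat and Ube2l6 were not called after rescaling, when 4 genes rose and 5 fell. Rescaling also lowered the calls over all genes from 3556 to 2213, both directions together. The shares of 2.19% and 22.1% are without rescaling and are no background for the rescaled counts. Fam46c, a poly(A) polymerase, rose from 9.10 and 10.6 FPKM to 33.2 and 28.7 FPKM, and Car2, a carbonic anhydrase, from 12.1 and 10.3 FPKM to 24.4 and 45.7 FPKM. The other called genes, named after their values were seen, were Bcl11a, a transcription factor that represses embryonic beta-type globin genes in definitive red cells (−1.36), and Gpx1, a glutathione peroxidase (1.00).

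At 12wk against 4wk, 0 of 53 genes rose and 1 fell by limma, where 2.68% of all tested genes rose and 2.48% fell. At an unadjusted limma p below 0.05, 8 were higher and 5 were lower. Over all 14650 tested genes 3843 were below that p in either direction, and their number by direction was not computed. The gene was Isg20, at 16.6 and 26.7 FPKM and then at 4.03 and 6.01 FPKM (−1.90 ± 0.56 SE, limma adjusted p = 0.0510). Without either 12wk sample no gene was called, and without either 4wk sample 2 fell. The median log2 difference was 0.00 in the list and over all tested genes.

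**Figure D5:**
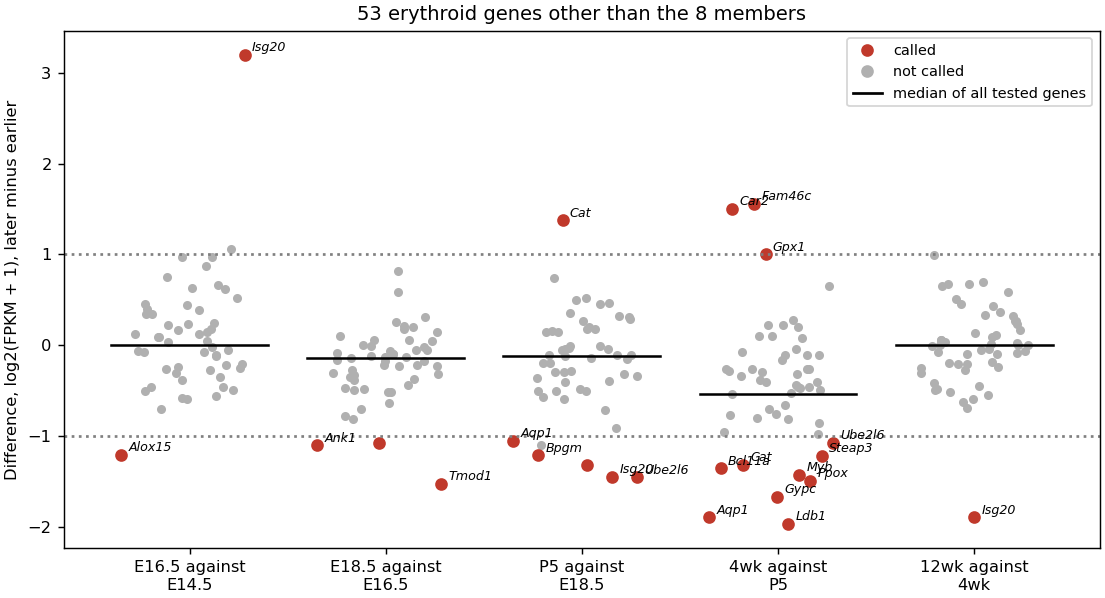
Differences of 53 erythroid genes in each comparison of consecutive ages, as log2(FPKM + 1) at the later minus the earlier age (vertical axis), where red points are called genes, grey points were not called, dotted lines mark a log2 difference of 1 in size and black lines are the median of all tested genes. The most calls, 3 higher and 9 lower, were at 4wk against P5, where the black line is at −0.53.

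Of the remaining globin rows, Hbq1a and Hbq1b, theta-type genes of the alpha cluster that share windows with each other, were at most 2.42 and 0.959 FPKM. Globins of other cells were not at the level of Beta-s. Cygb, the cytoglobin of fibroblasts, was at 10.2 FPKM or more up to P5 and fell to 4.79 and 5.39 FPKM at 4wk (−1.62 ± 0.15 SE, limma adjusted p = 1.26e-05), and Mb and Ngb, of muscle and neurons, stayed at or below 2.22 and 0.690 FPKM.

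Markers of other cells of blood and vessels had their own courses. The 16 leucocyte genes summed to 92.7 to 151 FPKM at E14.5, 132 to 219 FPKM at E16.5 and 128 to 151 FPKM at E18.5. They summed to 172 to 210.4 FPKM at P5 and 115 to 186 FPKM in the adult, where Lyz2 alone was at 88.5 to 134 FPKM. Of the 15 tested, 5 rose at P5 (4 after rescaling), led by the B cell genes Cd79a and Ms4a1 (2.62 and 2.15 on the log2 scale, as are the values in parentheses that follow), and 9 fell at 4wk, led by S100a9 (−3.69) and S100a8 (−3.44) of neutrophils, which were at 7.80 to 40.2 FPKM in every sample up to P5 and at 0.269 FPKM or less in the adult. The 5 were 33.3% of the tested leucocyte genes, beside 2.07% of all tested genes that rose at P5. The 9 were 60.0% of the tested leucocyte genes, beside 22.1% of all tested genes. After rescaling 7 leucocyte genes fell and 1 rose, and the shares of all genes given here are without rescaling. Lyz2, of macrophages and neutrophils, rose at E16.5 by 1.05, and Ngp, a neutrophil granule gene, fell at E18.5 by 1.24.

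The 10 genes of megakaryocytes and platelets summed to 15.5 to 22.5 FPKM at E14.5, 58.2 to 95.8 FPKM at E18.5 and 8.97 to 22.7 FPKM in the adult. Pf4, a platelet chemokine that made up most of these sums, rose at E16.5 (1.37) and fell at P5 (−1.16, not called after rescaling). Itga2b fell at 4wk (−1.10, not called after rescaling) and Gp5 at 12wk (−1.53). The 9 endothelial genes summed to 140 to 202 FPKM in the samples up to P5 and to 36.0 to 62.1 FPKM in the adult. Of these, 8 fell at 4wk, led by Cldn5 (−2.98) and Egfl7 (−2.26), or 3 after rescaling, and Cdh5 fell again at 12wk (−1.15). The 8 were 88.9% of the list, beside 22.1% of all tested genes, both without rescaling. The part of these cells in the levels of the globin and erythroid genes was not tested.

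The 8 hepatocyte genes, listed because the fetal liver makes red cells, summed to 0.734 to 25.2 FPKM. Alb, serum albumin, was at 1.24 and 7.08 FPKM at E18.5 and at 2.07 FPKM or less in the other 11 samples, and it was called higher at E18.5 (1.77) and lower at P5 (−2.06). The adult sums of 17.8 to 25.2 FPKM were nearly all Ttr, a thyroid hormone carrier, which was lower at P5 (−1.67) and higher at 4wk (4.68). The 10 genes of the salivary epithelium summed to 388 to 653 FPKM at E14.5 and 998 to 49094 FPKM later. Of these, 6 rose at E16.5, led by Smgc (9.04) and Aqp5 (4.52), or 60.0% beside 4.17% of all tested genes. At 4wk 3 fell, led by Smgc (−9.71) and Krt19 (−2.31), or 30.0% beside 22.1% of all tested genes. After rescaling 2 fell and 1 rose, counts for which the 22.1% is no background. Krt5 rose at 12wk (1.05). These differences between ages do not test the tissue of a sample, and in E14.5 replicate 1 Aqp5, Bhlha15 and Smgc were at 0.609 FPKM or less.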

How the data were processed

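Total RNA of dissected glands was sequenced as 50-base single-end reads (TruSeq libraries, HiSeq). The authors mapped them to mm9 with TopHat2 2.0.13 and Bowtie2 2.2.6, counted reads per UCSC gene of mm9 by featureCounts without those at more than 1 place or gene, and deposited 1 FPKM value per gene and sample. The authors name DESeq2 1.10.1 for normalization. Counts were not analysed here.

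The 8 genes and the lists of other genes were chosen with earlier results of these data known. Of the lists, the 2 called genes with the largest difference in each direction are named per comparison, and Bpgm in addition, as a gene alike in profile to Alas2. 1 called gene is counted but not reported here. The 14650 of 23364 genes that reached 1 FPKM in any sample were fitted as log2(FPKM + 1) with limma 3.58.1 in R 4.3.3 (lmFit, contrasts.fit, eBayes with trend), with the 6 ages as groups over all 13 samples. Code was tested on simulated data. P-values measure the spread between the deposited samples. Reads were worked back from the steps of low FPKM values and an effective length fitted per gene on 3 to 6 values. The length was chosen to bring these near whole numbers, so their mean deviation, within 0.02, is no check. At the fitted depths, 40.7% to 51.9% of the low values of a sample lay within 0.02 of whole numbers. Coding sequences and windows came from GENCODE models of mm9, and the start of Hbb-bs from RefSeq (GRCm38.p6), matched to mm9. Tables used Python 3.11.15. Alternatives used other filters on low values, a pseudocount of 0.1, median-of-ratios rescaling, no variance trend, an adjusted p below 0.05, a replicate block, only the ages compared, and each sample left out.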

Additional observations from a re-analysis of the deposited data

How the results depend on the processing

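The number of erythroid genes called was compared over 21 alternatives for each comparison, and a count within 1.5 times that reported was taken as the same. For E16.5 against E14.5, 2 genes were called, 5 with a pseudocount of 0.1, 1 with the replicate block, 1 with only the 2 time points compared, and 1 to 4 with a sample left out. For E18.5 against E16.5, 3 were called, 1 after median-of-ratios rescaling. For P5 against E18.5, 6 were called, and 1 to 7 with a sample left out. For 4wk against P5, 12 were called, 22 with a pseudocount of 0.1. For 12wk against 4wk, 1 was called, 4 with a pseudocount of 0.1, 0 with no filter on low values, 2 after rescaling, 0 at an adjusted p below 0.05, and 0 to 2 with a sample left out. The cause was not tested. The replicate block changed no other count by over 1.5 times. Samples that shared a replicate number did not deviate alike on average: deviations from the age means had a mean correlation of −0.016 in these 30 pairs. It was 0.012 in the 40 pairs that did not share a number. With 2 samples in most ages, the deviations within an age mirror each other, so the second value is not independent of the first.

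The embryonic share of the member rows was lowered by adding Beta-s, a choice made after seeing the data. It went from 100% to 27.0% for E14.5, from 99.0% to 0.372% for E16.5, from 98.9% to 0.0624% for E18.5, from 100% to 0.00911% for P5 and from 97.1% to 0.781% for 12wk. No member difference of at least 1 on the log2 scale reversed. Every postnatal value of the embryonic globins rests on 14 reads or fewer in a sample. The P5 libraries were the deepest of the series and the 4wk libraries the shallowest, so depth is a limit above all at 4wk.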
